A study of Mus musculus with 8 samples.

Results

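The genes described here carry the synthesis, transport and control of bile acids in the liver: Cyp7a1, Cyp8b1, Cyp27a1, Baat, Slc27a5, Abcb11, Slc10a1, Slco1a1, Nr0b2 and Nr1h4. They were chosen by name, as every probe set whose platform annotation gives 1 of these 10 symbols and no other. Earlier results of these data were known when the list was made. The paper had already listed Nr0b2 among genes lowered by persimmon peel extract in these arrays, so its call here is not independent. All 10 were measured, by 15 probe sets, among 18193 genes with a symbol of their own and 45037 probe sets in all. PD mice were male KK-Ay mice fed AIN-93G diet with persimmon peel (PP) extract, 1 g per kg diet, for 8 weeks, and CD mice were male KK-Ay mice fed AIN-93G diet without it over the same 8 weeks. All were 14 weeks old and had fasted for 3 h when the livers were taken. KK-Ay is an obese strain with type 2 diabetes, so both groups were diabetic and no lean mice were included. Livers of 4 PD mice (of 6 fed) and 4 CD mice (of 7 fed) were each hybridised to 1 array, and the authors had picked them for plasma ketone bodies near their group's average. PP extract is a mixture, the fraction of an ethanol extract of the peel that dissolved in methyl tert-butyl ether.

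Bile acids are made from cholesterol in hepatocytes. The classic route begins with CYP7A1, the rate-limiting 7α-hydroxylase, CYP8B1 adds the 12α-hydroxyl group that makes cholic acid, and CYP27A1 oxidises the sterol side chain. The acids are activated to coenzyme A esters, joined to taurine or glycine, pumped into bile and taken up again from portal blood. Bile acids activate the farnesoid X receptor (FXR, Nr1h4), which induces the small heterodimer partner (SHP, Nr0b2). SHP binds to liver receptor homolog 1 (LRH-1) and other receptors and lowers transcription of Cyp7a1 and Cyp8b1, and Cyp7a1 is also known to vary with feeding and the time of day.

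Nr0b2 was the only member called, and it was lower in PD mice. The other 9 differed between the diets by 0.30 or less on the log2 scale, and the means of Cyp7a1 and Cyp8b1, which SHP is known to repress, were -0.30 and -0.01 away from those of CD mice. Of the 15 probe sets, 5 were higher and 10 lower in PD mice. A probe set was called at a false discovery rate (FDR, the estimated share of false calls) under 0.1 in the rank product, which ranks every probe set by its difference in all 16 PD-against-CD array pairings. No member was called higher, where 0.218% of all probe sets were, and 1 probe set of 15 was called lower, where 0.262% of all were. Counted by gene, with the probe set of highest mean standing for each, 0.286% of all genes were called higher and 0.363% lower. The second test, limma, called 0% of the probe sets at an adjusted p under 0.1 and gave 3.65% of them an unadjusted p under 0.05, and 2 member probe sets, of Nr0b2 and Abcb11, were among these. For no member were the groups free of overlap, while the groups did not overlap for 2.08% of all probe sets and 2.15% of all genes. The members' median difference was -0.09 on the log2 scale, against -0.01 over all genes.

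**Figure D1:**
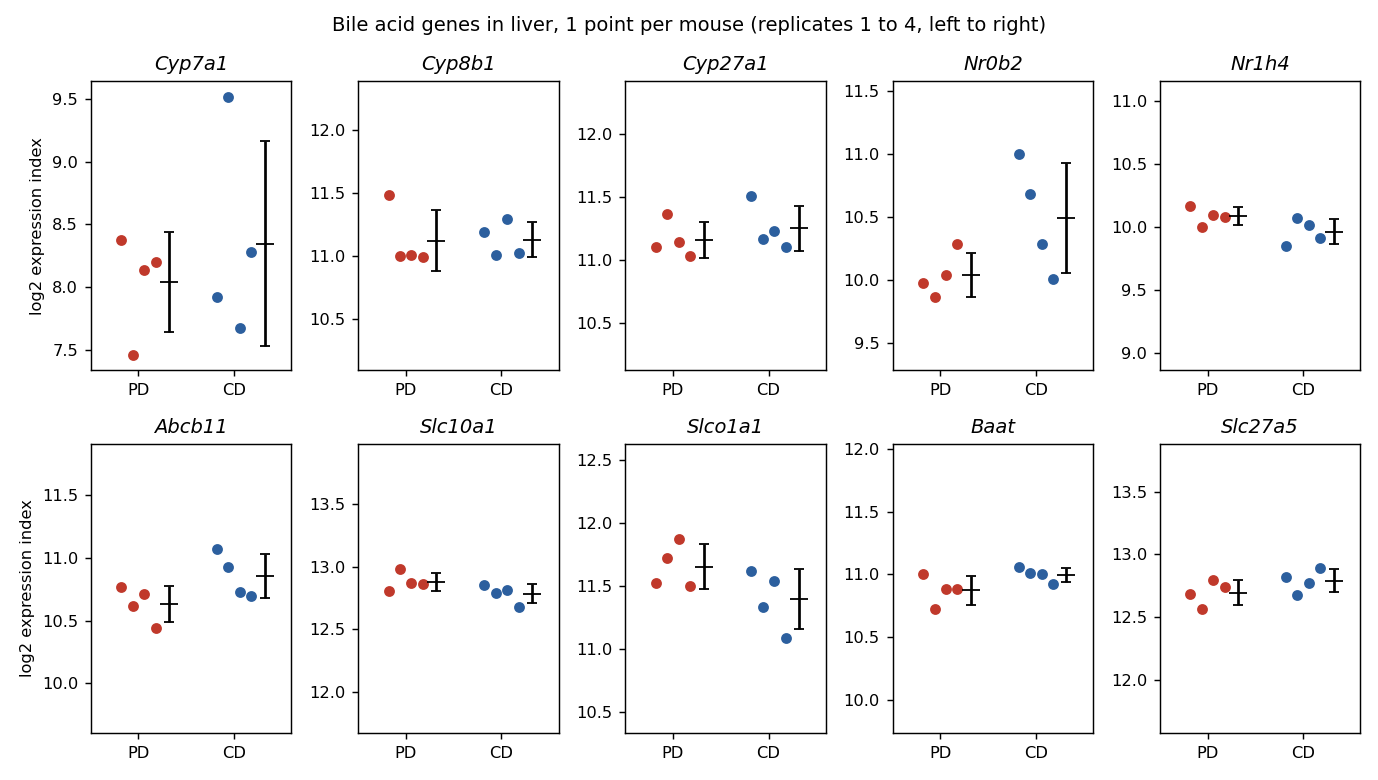
Log2 expression index (vertical axis, each panel spanning the same range of log2 units) of the 10 genes by diet, 1 point per mouse, with the mean and SD of 4 mice beside the points. Nr0b2 lay between 9.86 and 10.28 in PD mice and between 10.01 and 11.00 in CD mice, and Cyp7a1 was far higher in 1 CD mouse (9.52) than in the other 7.

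The promoters of the called gene, of a gene that SHP is known to repress and of a known FXR target are printed here. They were searched for motifs of FXR and LRH-1. They are RefSeq sequences on GRCm38.p6, from 250 bases before to 50 after the annotated start, for Nr0b2 at chr4:133553126-133553425 (plus strand), Cyp8b1 at chr9:121916256-121916555 (minus strand) and Abcb11 at chr2:69342567-69342866 (minus strand). Capitals mark AAGGCCA, a form of the LRH-1 motif, in Nr0b2 and Cyp8b1, and in Abcb11 an inverted pair of hexamers of the kind FXR binds.
Nr0b2: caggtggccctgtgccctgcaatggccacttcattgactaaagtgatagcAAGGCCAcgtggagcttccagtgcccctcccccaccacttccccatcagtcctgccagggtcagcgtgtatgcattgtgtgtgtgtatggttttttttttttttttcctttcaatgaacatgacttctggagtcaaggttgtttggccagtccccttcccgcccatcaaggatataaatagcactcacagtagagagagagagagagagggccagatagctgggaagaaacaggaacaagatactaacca
Cyp8b1: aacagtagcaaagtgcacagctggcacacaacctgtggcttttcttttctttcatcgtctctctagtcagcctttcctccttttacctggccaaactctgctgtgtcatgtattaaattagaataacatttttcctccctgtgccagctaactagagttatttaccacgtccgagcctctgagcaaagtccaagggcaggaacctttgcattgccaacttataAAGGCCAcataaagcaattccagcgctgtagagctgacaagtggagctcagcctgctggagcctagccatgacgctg
Abcb11: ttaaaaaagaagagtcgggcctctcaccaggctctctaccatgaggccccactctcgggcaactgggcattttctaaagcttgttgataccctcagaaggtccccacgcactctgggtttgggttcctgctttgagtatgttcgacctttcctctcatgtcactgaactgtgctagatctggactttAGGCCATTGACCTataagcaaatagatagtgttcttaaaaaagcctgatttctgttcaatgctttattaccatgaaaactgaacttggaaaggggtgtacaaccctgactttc
AAGGCCA began 200 bases before the start of Nr0b2 and 27 bases before that of Cyp8b1. RefSeq promoters were matched for 7 of the 10 members, 8 promoters in all. On either strand, AAGGCCA was in 3 of these 8 and in 6.20% of 32851 mouse promoters of the same length, and AAGGTCA, which contains the receptor hexamer AGGTCA, was in 1 of 8 (Slco1a1) and in 4.72%. The exact FXR repeat, AGGTCA followed after 1 base by TGACCT, was in 0 of 8 member promoters and in 0.00913% of all. With the 4th letter of 1 hexamer left free, a form chosen after the sequences were seen, it was in 1 of 8, beginning 63 bases before the start of Abcb11, and in 0.0365% of all. A match is a stretch of letters and not a measured binding site. Sequence more than 250 bases before the start was not searched, so the counts do not show that a gene lacks a site.

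Nr0b2 (probe set 1449854_at), the repressor of the loop, had log2 expression indices of 9.97, 9.86, 10.04 and 10.28 in PD mice and 11.00, 10.68, 10.29 and 10.01 in CD mice. The 4 PD mice lay close together, while CD replicates 1 and 2 stood well above every PD mouse, CD replicate 3 was level with the highest of them and CD replicate 4 lay within the PD range. The mean was 10.04 ± 0.18 in PD mice and 10.49 ± 0.44 in CD mice (SD, n = 4 each), a difference of -0.46 (SE 0.18, 95% confidence interval -0.86 to -0.06). On the linear scale the PD level was 0.729 of the CD level. The rank product called it at an FDR of 0.033, and limma gave an adjusted p of 0.998. The call was lost without CD replicate 1, 2 or 3. Without CD replicate 1 the difference was -0.29 at an FDR of 0.503, and without CD replicate 2 it was -0.39 at 0.291. Without CD replicate 3 it was larger in size, -0.52, at 0.108. Over all probe sets, 118 were called lower with every mouse kept, and 16, 41 and 34 without CD replicates 1, 2 and 3 in turn. Nr0b2 stayed called without any of the other 5 mice. CD replicate 1, with the highest Nr0b2, also had the lowest level of Dbp, a gene of the circadian clock's output, at 9.20. CD replicate 2, second in Nr0b2, had a Dbp level of 11.64, within the PD range. The part of time of day in the Nr0b2 difference was not tested. Whole liver was hybridised, so fewer cells of a type and less RNA per cell cannot be told apart.

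Nr1h4 (1419105_at), the bile acid receptor that induces Nr0b2, was measured at 10.17, 10.001, 10.10 and 10.08 in PD mice and 9.85, 10.07, 10.02 and 9.92 in CD mice. Its difference of 0.12 (SE 0.06, 95% confidence interval -0.01 to 0.25) ran opposite to that of Nr0b2 and was not called. PD and CD values overlapped, with PD replicate 2 below CD replicates 2 and 3.

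Cyp7a1, the first enzyme of the classic route, varied more between mice than any other member. Its brighter probe set (1438743_at) gave 8.37, 7.46, 8.14 and 8.20 in PD mice and 7.92, 9.52, 7.67 and 8.28 in CD mice. CD replicate 2 was the highest of the 8 and PD replicate 2 the lowest, and the other 6 mice of both diets were mixed. The means were 8.04 ± 0.40 in PD mice and 8.35 ± 0.82 in CD mice (SD, n = 4 each), a difference of -0.30 (SE 0.34, 95% confidence interval -1.06 to 0.46, FDR 0.245). On the linear scale this interval ran between 0.478 and 1.37 times the CD level, on both sides of no change. Without CD replicate 2 the difference was 0.09, without PD replicate 2 it was -0.11, and without PD replicate 1 it was -0.41 and was called at an FDR of 0.096. The other probe set (1422100_at), dimmer than the median probe set of the arrays, gave 6.91, 6.32, 6.66 and 6.85 in PD mice and 6.76, 7.72, 6.55 and 6.90 in CD mice. It placed the same mice highest and lowest, with a difference of -0.30 (SE 0.22). The SD within diets of the brighter probe set was higher than that of 99.8% of all probe sets, and that of Nr0b2 higher than that of 98.9%.

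Cyp8b1 (1449309_at), the 12α-hydroxylase, was at 11.49, 11.00, 11.01 and 11.00 in PD mice and 11.19, 11.01, 11.30 and 11.03 in CD mice. PD replicate 1 was the highest of all, and the other 3 PD mice were the lowest and close together. The means were 11.12 ± 0.24 in PD mice and 11.13 ± 0.14 in CD mice (SD, n = 4 each). The difference was -0.01 (SE 0.11, 95% confidence interval -0.26 to 0.24), and its sign turned with each array centred on its median and in 5 of the 8 fits that each dropped 1 mouse. Cyp27a1 (1417590_at), the side-chain hydroxylase, was at 11.10, 11.36, 11.14 and 11.03 in PD mice and 11.51, 11.17, 11.23 and 11.10 in CD mice, a difference of -0.09 (SE 0.09). CD replicate 1 was the highest of the 8, and the difference was -0.0057 without it. Leaving out PD replicate 2 gave -0.16, PD replicate 4 gave -0.05 and CD replicate 4 gave -0.14. Its other probe set (1457665_x_at) was dimmer than all but 1.31% of the probe sets, at 5.67 to 5.74 in PD mice and 5.67 to 5.85 in CD mice.

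The enzymes that activate and conjugate bile acids were slightly lower in PD mice and were not called. Slc27a5 (1449112_at), the bile acid coenzyme A ligase, was at 12.68, 12.57, 12.79 and 12.74 in PD mice and 12.82, 12.68, 12.77 and 12.89 in CD mice, a difference of -0.09 (SE 0.06, 95% confidence interval -0.23 to 0.04). Baat (1419002_s_at), the amino acid N-acyltransferase that adds taurine or glycine, was at 11.00, 10.72, 10.89 and 10.89 in PD mice and 11.06, 11.01, 11.01 and 10.92 in CD mice. Of the PD mice, 3 lay below every CD mouse, and PD replicate 1 lay above CD replicate 4. The difference was -0.12 (SE 0.06, 95% confidence interval -0.26 to 0.01), and the other probe set of Baat (1419001_at) gave -0.11 (SE 0.06).

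Abcb11 (1449817_at), the canalicular bile salt export pump and a known target of FXR, was at 10.77, 10.61, 10.71 and 10.44 in PD mice and 11.07, 10.93, 10.72 and 10.69 in CD mice. CD replicates 1 and 2, the mice with the highest Nr0b2, were above every PD mouse, and CD replicates 3 and 4 lay within the PD range. The mean was 10.63 ± 0.14 in PD mice and 10.85 ± 0.18 in CD mice (SD, n = 4 each). The difference of -0.22 (SE 0.09, 95% confidence interval -0.43 to -0.01) had an FDR of 0.438 and a limma adjusted p of 0.998, so it was not called. Fits that each dropped 1 mouse gave -0.27 to -0.15.

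Slco1a1 and Slc10a1, carriers that take up bile acids across the sinusoidal membrane, had higher means in PD mice in both probe sets of each, and were not called. Slco1b2 and Slco2b1, other carriers of that membrane, differed by -0.04 (SE 0.06) and -0.01 (SE 0.06) on their brightest probe sets. Their other probe sets gave -0.07 to 0.03 and -0.09 to 0.08. Slco1a4, of the same family as Slco1a1, differed by 0.28 (SE 0.08), was not called and is described further on. Slco1a1 (1420379_at), an organic anion transporter, was at 11.52, 11.72, 11.88 and 11.50 in PD mice and 11.62, 11.33, 11.54 and 11.09 in CD mice. CD replicate 4 was the lowest and PD replicate 3 the highest, and the diets overlapped between 11.50 and 11.62. The difference was 0.26 (SE 0.12, 95% confidence interval -0.0013 to 0.52, FDR 0.234), and it was called without CD replicate 1 (0.33) or CD replicate 3 (0.31). Without CD replicate 4 it was 0.16 at an FDR of 0.655, and without PD replicate 3 it was 0.19 and not called. Its other probe set (1449844_at) gave 0.15 (SE 0.09). Slc10a1 (1424898_at), the sodium-taurocholate cotransporter, was at 12.80, 12.98, 12.87 and 12.86 in PD mice and 12.85, 12.79, 12.81 and 12.68 in CD mice, a difference of 0.10 (SE 0.05, 95% confidence interval -0.02 to 0.22). Of the PD mice, 3 lay above every CD mouse. Its other probe set (1450261_a_at) gave 0.11 (SE 0.06).

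**Figure D2:**
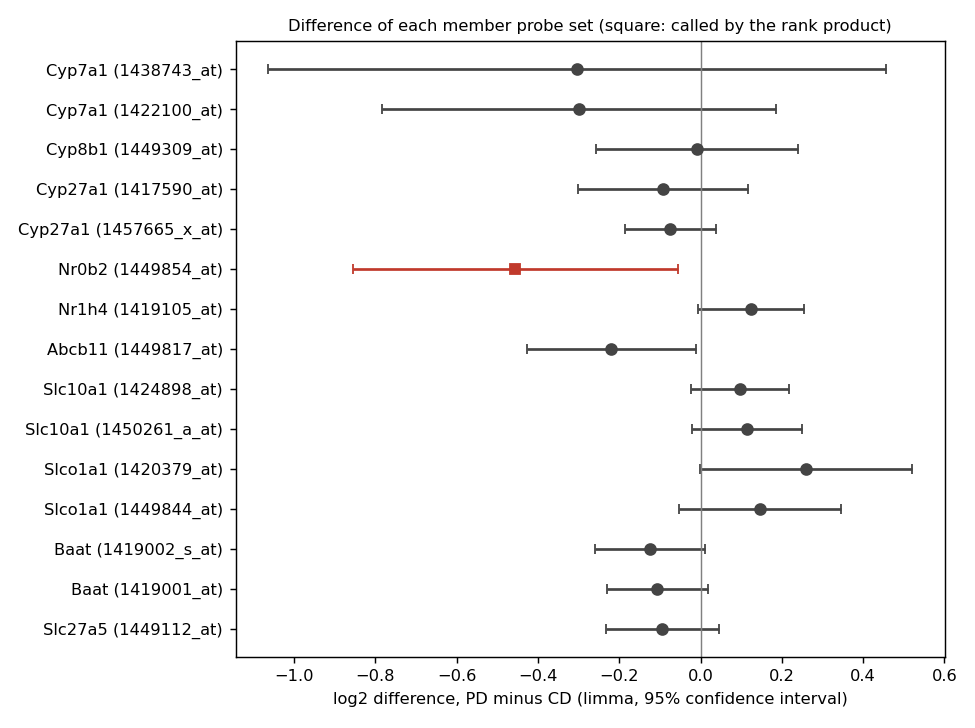
Log2 difference, PD minus CD, of the 15 member probe sets (horizontal axis) with limma's 95% confidence interval. The square marks Nr0b2, the only called probe set (-0.46, interval -0.86 to -0.06), and of the other 14 intervals that of Abcb11 alone (-0.43 to -0.01) lies on one side of 0.

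The relation of Nr0b2 to the enzymes that SHP is known to repress was examined between mice. Over the 8 mice, Nr0b2 and Cyp7a1 had Pearson's r = 0.34 (two-sided exact permutation p = 0.408) and Spearman's rho = 0.10 (exact p = 0.840). With each diet's mean taken off, r was 0.23 (exact p = 0.755, permuted within diets). Without CD replicates 1 and 2, the mice farthest from the median of Nr0b2, r was 0.08 (exact p = 0.922). Leaving out CD replicate 2 alone gave r = -0.07, and leaving out CD replicate 1 alone gave r = 0.73, so the value rested on single mice. CD replicate 1, with the highest Nr0b2 of 11.00, had a Cyp7a1 value of 7.92, while CD replicate 2, second in Nr0b2, had the highest Cyp7a1.

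For Nr0b2 and Cyp8b1, r was -0.0021 (exact permutation p = 0.997) and rho was 0.14 (exact p = 0.752). With each diet's mean taken off, r was -0.02, and without CD replicates 1 and 2 it was 0.06. Cyp7a1 and Cyp8b1 had r = -0.13 with each other (exact p = 0.708, rho 0.17). No inverse relation of Nr0b2 to either enzyme was detected over the 8 mice, which does not show that there is none.

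Of the 10 relations computed, Nr0b2 with Abcb11 had the highest r, 0.72 (exact permutation p = 0.047, Benjamini-Hochberg adjusted 0.270, rho 0.60 at p = 0.132). It was 0.55 with each diet's mean taken off (exact p = 0.264), and it was -0.36 without CD replicates 1 and 2, so it rested on those mice. Nr0b2 with Baat had r = 0.69 (exact p = 0.054, adjusted 0.270) and rho = 0.76 (exact p = 0.037, adjusted 0.368), with r = 0.50 after the diet means were taken off and 0.53 without those 2 mice. Nr0b2 with Cyp27a1 had r = 0.49, which was -0.44 without those 2 mice. With Nr1h4 r was -0.45 (exact permutation p = 0.259), which was -0.09 after the diet means were taken off and 0.05 without those 2 mice. With Slc27a5, Slc10a1 and Slco1a1, r lay between -0.10 and 0.24. After the diet means were taken off it changed sign for each, to -0.10, 0.44 and 0.43 (exact permutation p = 0.845, 0.361 and 0.413). None of the 10 passed after adjustment.

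**Figure D3:**
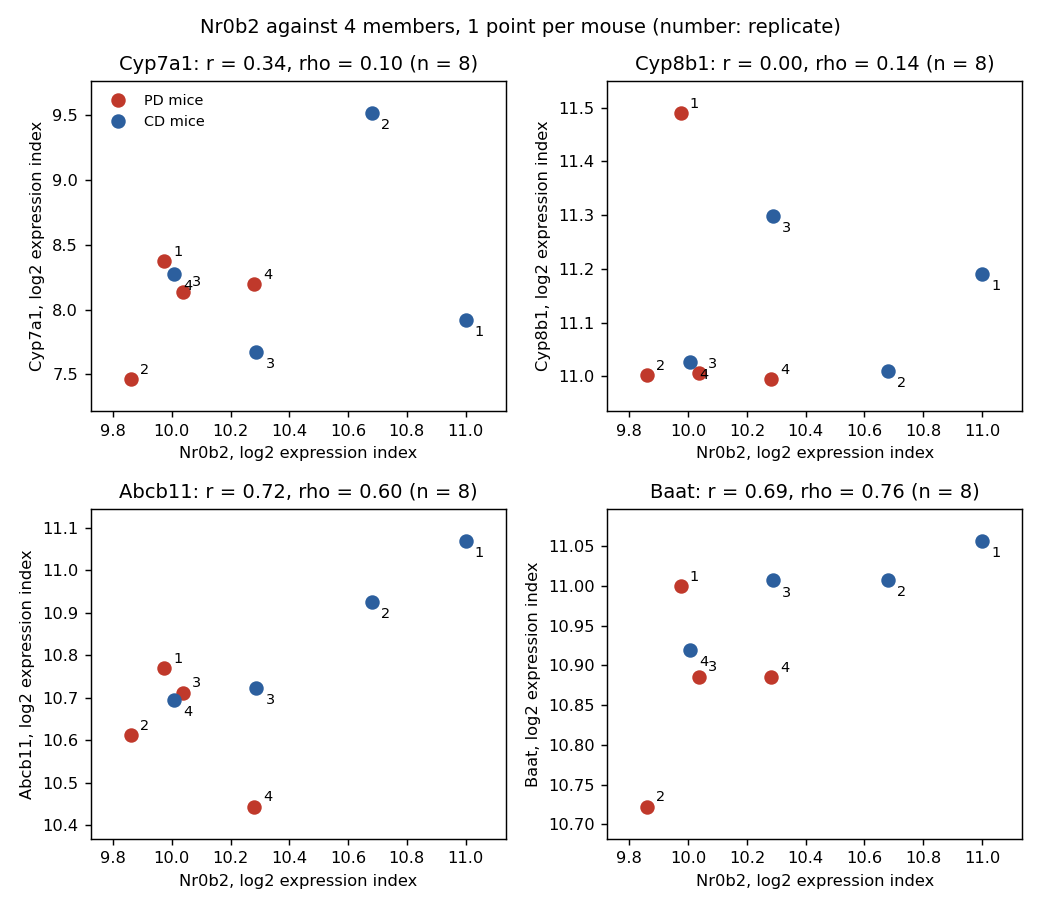
Log2 expression index of Cyp7a1, Cyp8b1, Abcb11 and Baat (vertical axes) against that of Nr0b2 (horizontal axes), 1 point per mouse, numbered by replicate. CD replicates 1 and 2 lie at the right, at 11.00 and 10.68 for Nr0b2, and r is 0.34 for Cyp7a1, -0.0021 for Cyp8b1, 0.72 for Abcb11 and 0.69 for Baat.

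The genes whose pattern over the 8 mice was most like that of Nr0b2 were on none of the bile acid lists. Among 12102 genes brighter than the median probe set, r was highest for Cfap57 (0.99), Ldoc1 (0.99), Pde11a (0.93), Sema4c (0.93) and AW209491 (0.92), and lowest for Bmf (-0.98), Gng10 (-0.96), Zfp760 (-0.96), Parp12 (-0.95) and Trio (-0.95). These correlations describe 8 arrays that share a diet contrast, and 52 genes reached 0.9 in size. With each diet's mean taken off, r of the genes named ran from 0.89 (Pde11a) to 0.99 (Cfap57) and from -0.97 (Bmf) to -0.95 (Gng10). These genes were picked for their r over the same 8 mice, so the values without diet means are no separate check. Cfap57 spanned only 0.23 log2 units over the 8 mice. Bmf, a BH3-only protein of the apoptosis pathway, was at 7.76, 7.75, 7.60 and 7.57 in PD mice and 6.93, 7.16, 7.54 and 7.65 in CD mice, so that CD replicates 1 and 2 stood apart at the low end. Ldoc1 was at 7.65, 7.60, 7.67 and 7.73 in PD mice and 8.06, 7.93, 7.71 and 7.66 in CD mice, with the same 2 mice at the high end. Of the members, Abcb11 ranked 481 and Baat 617 of 12102.

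Around the members, 42 other bile acid genes were listed and 41 were measured, 14 of synthesis, 12 of transport and 15 regulators. None was called higher and none lower on its brightest probe set, nor on any of the 77 probe sets of these genes. By direction, 13 were higher and 28 lower in PD mice, with a median difference of -0.05. Groups did not overlap for 2 of them, and for 2.15% of all genes. An unadjusted limma p under 0.05 was found for 4, and for 4.24% of all genes.

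Of these 4, Slco1a4, an organic anion transporter of the same family as Slco1a1, was at 8.26, 8.22, 8.25 and 8.18 in PD mice and 8.12, 8.04, 7.67 and 7.95 in CD mice. Every PD mouse was above every CD mouse, and the difference was 0.28 (SE 0.08, 95% confidence interval 0.10 to 0.47, FDR 0.139). Cyp46a1, the cholesterol 24-hydroxylase, known chiefly from brain, was also higher, by 0.19 (SE 0.07). Akr1d1, the 5β-reductase that shapes the steroid ring of bile acids, differed by -0.22 (SE 0.08). It was at 11.62, 11.45, 11.53 and 11.61 in PD mice and 11.96, 11.74, 11.56 and 11.86 in CD mice, with CD replicate 3 within the PD range. Amacr, the racemase that prepares the side chain for shortening, was at 10.45, 10.17, 10.43 and 10.38 in PD mice and 10.47, 10.52, 10.49 and 10.51 in CD mice, a difference of -0.14 (SE 0.06) without overlap.

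Among the regulators, 4 were higher and 11 lower in PD mice. Nr5a2, which encodes LRH-1, differed by -0.01 (SE 0.06). Fgfr4 and Klb, the receptor and co-receptor of the intestinal hormone FGF15, differed by -0.13 (SE 0.07) and 0.12 (SE 0.11) on their brightest probe sets. The other probe sets of Fgfr4 gave -0.04 to 0.01, and that of Klb gave 0.04. Hnf4a, a hepatocyte receptor that drives Cyp7a1 and Cyp8b1, differed by -0.11 (SE 0.07), and its other probe sets gave -0.16 to 0.01. Cebpb had the lowest difference of the list, -0.26 (SE 0.12).

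**Figure D4:**
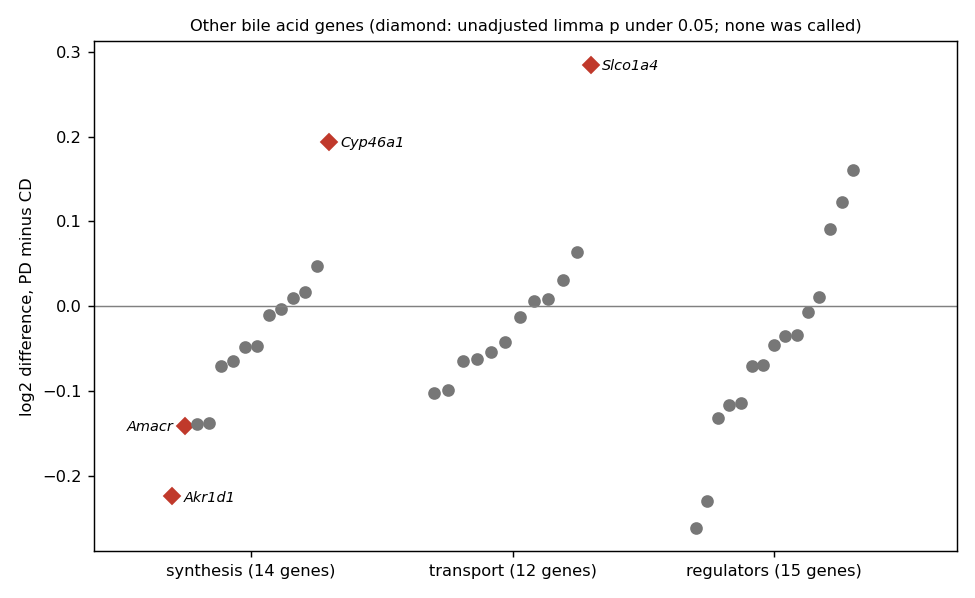
Log2 difference, PD minus CD, of the 41 other bile acid genes (vertical axis), ordered within synthesis, transport and regulators, 1 point per gene. Diamonds mark the 4 with an unadjusted limma p under 0.05, Slco1a4 (0.28), Cyp46a1 (0.19), Amacr (-0.14) and Akr1d1 (-0.22), and none was called.

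The array medians lay between 7.09 and 7.16 and pairs of arrays correlated between 0.991 and 0.996. The summed linear level of 6 hepatocyte markers was 86322 to 89993 in PD mice and 85507 to 91502 in CD mice, and no marker was listed at 0. Of the 6, 5 had lower means in PD mice and Tat was called lower. Groups did not overlap for 2 of them, Tat and Asgr1, where they did not for 2.15% of all genes. The summed level of 5 cholangiocyte markers was 545 to 559 in PD mice and 541 to 576 in CD mice. That of 6 Kupffer cell and macrophage markers was 3237 to 3557 in PD mice and 2645 to 4080 in CD mice. For 7 pericentral markers it was 29848 to 35329 in PD mice and 31113 to 36335 in CD mice. Of these 7, 6 had lower means in PD mice and none was called. Of 6 stellate cell and fibroblast markers, 4 had higher means in PD mice (median difference 0.12) and Col3a1 was called higher (0.37, FDR 0.022), with summed levels of 2913 to 3051 in PD mice and 2390 to 3184 in CD mice. The 3 neutrophil markers had lower means in PD mice (sum 442 to 490, against 453 to 572 in CD mice), as did the 5 periportal markers (24983 to 28151, against 26278 to 29992 in CD mice), and none of these was called. Of the endothelial, T and B cell and enterocyte markers none was called, and their summed levels overlapped between PD and CD mice. All 9 acute phase genes had lower means in PD mice, and 3 were called lower (Saa1, Saa2 and Lcn2), where 0.363% of all genes were. The summed level of the 9 was 49116 to 60425 in PD mice and 47739 to 120890 in CD mice. CD replicate 4, the CD mouse with the lowest Nr0b2, was at the top. Without that mouse, the CD means of Saa2 (8.94) and Lcn2 (8.26) lay below the PD means (9.06 and 8.67). Those of Orm1, Orm2 and Hp did too, while those of Saa1, Saa3 and Itih4 stayed above. Of 11 clock genes, Dbp was called higher and Cry1 lower in PD mice. The summed level of the 11 was 7026 to 9855 in PD mice and 5064 to 8906 in CD mice, with CD replicate 1 at the low end. That mouse was the lowest of all for Dbp, Nr1d2, Per2 and Tef. It was the highest of all for Arntl (7.95), Cry1 (8.41), Clock, Npas2 and Nr1d1, so the sum mixes genes of both kinds. Of 5 male-biased liver genes measured, Elovl3 was called lower (-0.40), and their summed level was 24835 to 27429 in PD mice and 26207 to 29490 in CD mice. The part of these in the differences of the members was not tested.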

How the data were processed

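Liver RNA of 4 PD and 4 CD mice, labelled as separate biological replicates, was hybridised to Affymetrix mouse genome arrays, 1 per mouse. The authors quantified them with a model-based expression index in R and Bioconductor (R 2.7.2 per the submitters' processing notes) and deposited log2 values. Normalization between arrays was not given in the sources used here. The number of arrays limits the precision. Of 45101 probe sets, 64 controls were left out. The platform annotation gave 34945 of the rest 1 gene symbol, 932 several and 9160 none.

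The rank product (1000 permutations, FDR under 0.1, as in the study's methods) and limma 3.58.1 (R 4.3.3) were run on all 45037 probe sets. Both were also run on simulated data with known changes. The simulated noise was independent between probe sets, with the highest SDs cut back, so it did not check the FDR of these arrays. limma gave the SE, intervals and p-values, adjusted by Benjamini-Hochberg. Relations had exact permutation tests (SciPy 1.17.1). Levels of different probe sets were compared only to choose the brightest of a gene, to filter by brightness and to describe dim probe sets. The levels of marker and side lists were summed. Alternatives changed the test, normalization, log scale, filter, probe set or mice, 1 at a time. The named genes were all members, other bile acid genes called or with an unadjusted limma p under 0.05, and the 5 genes most and least correlated with Nr0b2. Nr5a2, Fgfr4, Klb, Hnf4a, Cebpb, Slco1b2, Slco2b1 and the genes named from the side and marker lists were named after their values were seen. Members and lists were chosen with earlier results of these data known.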

Additional observations from a re-analysis of the deposited data

Results flagged for a closer look

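Of 38 groups of 4 mice tested for a value far from the rest, 1 was marked, and chance marks about 1 in 20 such groups. Cyp8b1 in PD mice was 11.49 in replicate 1 and 11.00 to 11.01 in the other 3, so the gap to the nearest mouse was 0.978 of the group's range, above Dixon's critical value for 4 values. Without that mouse the Cyp8b1 difference was -0.13.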

How the results depend on the processing

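The Nr0b2 call depended on the test. The difference was -0.46 and not called by limma, by limma with a trend and robust variances, by limma with the replicate block, and by the methods' t-test before and after adjustment, and it was -0.43 with array weights, so that the count of members called lower was 0 under each of these. Nr0b2 stayed called in the rank product with a stricter FDR, after quantile normalization or centring, with 16 added before the log2, and without dim probe sets. It also stayed called without the probe sets whose names end in _s_at or _x_at, which left 40508. Leaving out each mouse in turn gave Nr0b2 differences between -0.62 and -0.29, Cyp7a1 between -0.53 and 0.085 and Cyp8b1 between -0.13 and 0.048. The Cyp8b1 difference was 0.0015 after centring each array. Members called higher numbered 0 to 1 (Slco1a1) and called lower 0 to 2 (Nr0b2, and Cyp7a1 without PD replicate 1). Of the wider list, 0 to 1 were called higher (Slco1a4, without CD replicate 1 or 2) and 0 to 1 lower (Nr1i3 without PD replicate 1, Cebpb without PD replicate 2), and the unadjusted t-test called 1 higher (Slco1a4) and 1 lower (Acox2). The relation of Nr0b2 to Cyp7a1 ranged between -0.068 and 0.73 and that to Cyp8b1 between -0.16 and 0.41, where rho was 0.14, r after quantile normalization 0.014 and r without 2 mice 0.063. The causes were not tested. Apart from these, no member probe set changed direction or call under any alternative that was run.

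Over all probe sets, 98 were called higher and 118 lower in the rank product. The counts were 71 and 59 at an FDR under 0.05, 72 and 70 without dim probe sets, 831 and 880 by the unadjusted t-test and 0 and 0 by limma, and leaving out 1 mouse gave 27 (without PD replicate 4) to 190 (without CD replicate 3) higher and 16 (without CD replicate 1) to 208 (without PD replicate 1) lower. Mice of equal replicate number did not deviate together (correlations -0.06 to -0.00), so the numbers were not taken as pairs. With the replicate block, the rank product called 109 higher and 102 lower and still called Nr0b2, whose differences by number were -1.03, -0.82, -0.25 and 0.27. The filter on dim probe sets gave no value for Cyp7a1 (1422100_at) and Cyp27a1 (1457665_x_at).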
